A study of Mus musculus with 12 samples.

Results

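The transcription factor genes Batf3, Irf8, Irf4, Id2, Nfil3, Zfp366, Zbtb46, Bcl6, Spib and Tcf4, which set or mark the dendritic cell lineages, were followed through 12 RNA-seq libraries of mouse conventional dendritic cells of type 1 (cDC1), taken from inguinal lymph nodes. They are 10 of 53458 annotated genes and hold 92 of the 136288 transcript rows of the deposited tables. The genes were chosen by name, with earlier results of these data known. Their transcript rows were summed to genes and also read one by one. All 10 passed the filter on low counts that left 18095 genes for testing. The libraries form 4 groups of 3. NoTumor-CD40 libraries came from animals without a tumor that received a CD40 agonist, and NoTumor-NoCD40 libraries from animals with neither. Tumor-CD40 libraries came from animals with a tumor that received the agonist, and Tumor-NoCD40 libraries from animals with a tumor and no agonist. The tumor was subcutaneous KPC (cells of a mouse pancreatic cancer model) by the series title, and CD40 is a receptor on dendritic cells and B cells whose ligand is carried by helper T cells. Strain, age, agonist dose, times, sort gates and whether the libraries of a group came from separate animals are not given in the sources used here, so each p-value reflects only how these libraries spread, which may be technical.

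Dendritic cell lineages are set apart by a small network of transcription factors. Irf8 and Batf3 set the cDC1 fate, with Id2 and Nfil3 acting in the precursors, while Irf4 is tied to the cDC2 fate and to migration, and Tcf4 and Spib to plasmacytoid dendritic cells. Zbtb46 marks conventional dendritic cells as a whole, and several of these factors, Spib, Irf4, Irf8, Bcl6 and Tcf4 among them, also work in B cells.

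Markers of cDC1 were present in every library. In TPM, an abundance scaled for transcript length and library size, Clec9a ranged from 26.4 to 259 and Xcr1 from 9.92 to 124 over the 12 libraries. Siglech of plasmacytoid dendritic cells stayed between 0.18 and 1.80 TPM. In CPM, counts scaled for library size only, the sum of 16 cDC1 identity genes ranged from 2203 to 9429 in NoTumor-CD40, from 8564 to 12107 in NoTumor-NoCD40, from 4591 to 6473 in Tumor-CD40 and from 2104 to 13357 in Tumor-NoCD40 libraries. The libraries of a group thus differed in how much cDC1 RNA of this kind they held. The summed CPM of 14 B cell genes was 1229 to 3271 in Tumor-CD40 libraries and 227 to 525 in the other 9. That of 10 plasmacytoid dendritic cell genes, Siglech among them, was 518 to 632 in Tumor-CD40 libraries and 183 to 399.98 in the other 9. The depth per library was 22855143 to 27163393 expected counts. In bulk libraries, fewer cells of a type and less RNA per cell cannot be told apart.

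The agonist went with a higher level of one of the 10 genes, Spib, and with no other gene-level change past the threshold. Spib averaged 50.4 ± 29.6 TPM in NoTumor-CD40 and 7.68 ± 3.86 TPM in NoTumor-NoCD40 libraries, and 46.5 ± 9.08 TPM in Tumor-CD40 and 14.6 ± 6.33 TPM in Tumor-NoCD40 libraries (SD, n = 3 each). The cDC1 factors Irf8, Id2 and Nfil3 did not pass in any comparison, and Batf3 had a positive value that missed the threshold. The division of Batf3 among its transcripts differed with the agonist, with a smaller share for the protein-coding form. That share call was lost in 4 of 12 runs that each left out a library.

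**Figure D1:**
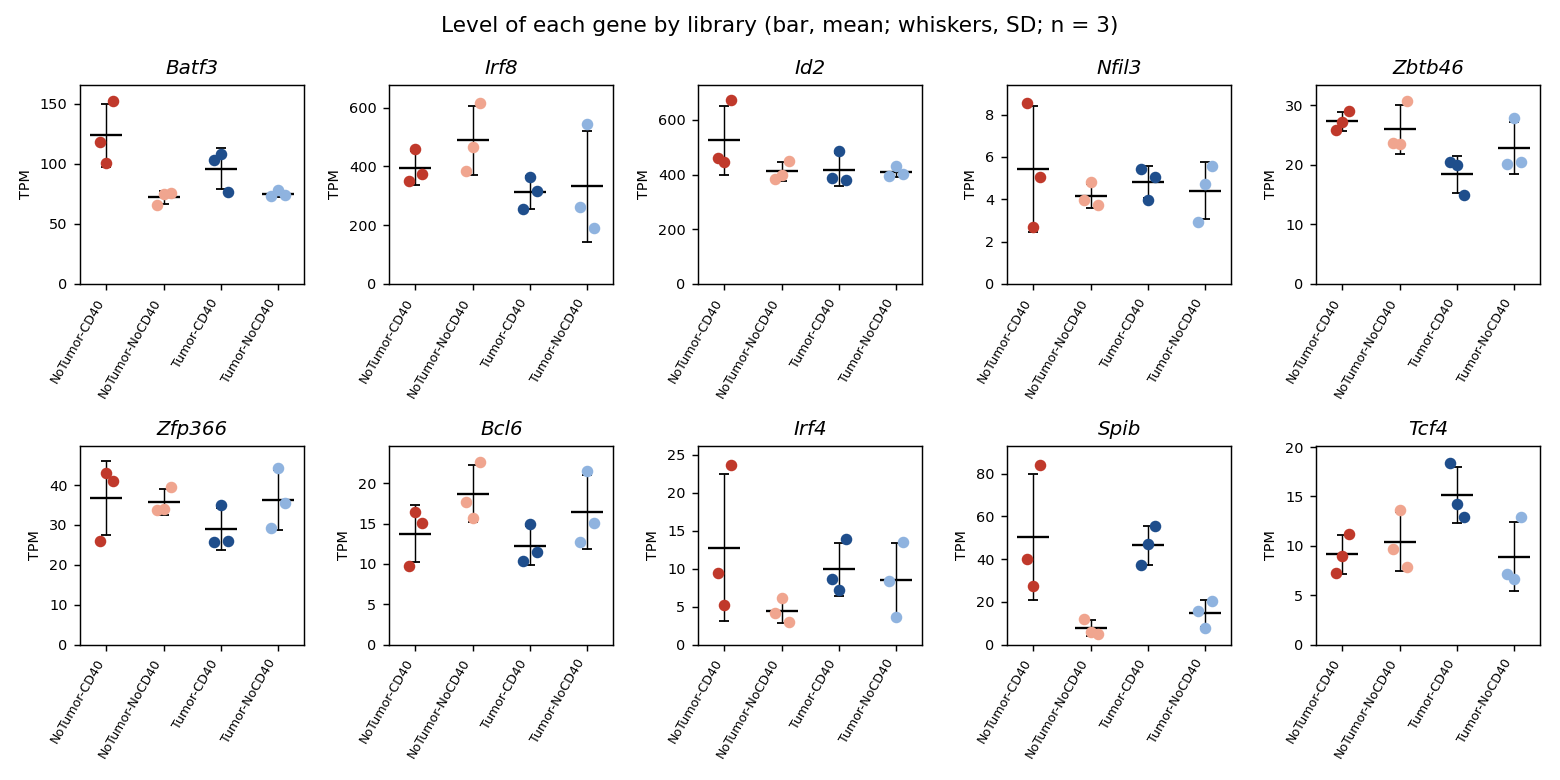
Level of each of the 10 genes in TPM in every library (points), with the mean and SD of each group of 3. Spib stands at 27.3 to 83.8 TPM in NoTumor-CD40 and at 5.07 to 12.1 TPM in NoTumor-NoCD40 libraries, while Irf8 and Id2 overlap between agonist and untreated libraries in both pairs.

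Compared per length, Id2 and Irf8 were the 2 most abundant of the 10 genes in every group, with 380 to 671 TPM for Id2 and 190.2 to 615 TPM for Irf8. They overlapped each other in 3 groups and did not in Tumor-CD40. Batf3 took the third place in every group, between 65.6 and 152 TPM, and overlapped neither of its neighbours in the order. Below it stood Zfp366 (25.8 to 44.2 TPM), Zbtb46 (14.9 to 30.7 TPM) and Bcl6 (9.81 to 22.6 TPM), then Tcf4 (6.66 to 18.4 TPM), Irf4 (2.95 to 23.7 TPM) and Nfil3 (2.68 to 8.57 TPM). Tcf4, Irf4 and Nfil3 overlapped with a neighbour in most groups. Spib took place 4 of 10 in both agonist groups, place 7 in Tumor-NoCD40 and place 8 in NoTumor-NoCD40. No other of the 10 genes moved by more than 2 places between groups.

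Irf8 (ENSMUSG00000041515, chromosome 8, 120736358 to 120756694, plus strand, build GRCm38), the factor on which cDC1 identity depends, showed the widest spread among the abundant genes. It had 352, 459 and 374 TPM in NoTumor-CD40, against 384, 466 and 615 TPM in NoTumor-NoCD40 libraries. Tumor-CD40 libraries held 253, 364 and 316 TPM, against 261, 545 and 190.2 TPM in Tumor-NoCD40 libraries. Agonist and untreated libraries overlapped in both pairs, and the highest and lowest values with a tumor were both in Tumor-NoCD40. The log2 fold change with the agonist was -0.39 ± 0.33 (standard error, SE, derived from the test throughout) without a tumor and -0.15 ± 0.33 with one, with edgeR adjusted p of 0.56 and 0.934. Leaving out Tumor-NoCD40 replicate 2 turned the value with a tumor to 0.44, and the value from 3 other settings was also slightly positive. Gm20388, an annotated protein-coding gene on the same strand, overlaps Irf8, so the division of reads between them is less certain than their sum.

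Batf3 (ENSMUSG00000026630, chromosome 1, 191097847 to 191108945, plus strand), a basic leucine zipper factor needed for cDC1 development, had 118, 101 and 152 TPM in NoTumor-CD40, against 65.6, 74.6 and 75.9 TPM in NoTumor-NoCD40 libraries. Among tumor-bearing animals it had 103, 108 and 76.3 TPM in Tumor-CD40, against 73.2, 78.2 and 74.0 TPM in Tumor-NoCD40 libraries. Every agonist library stood above every untreated one without a tumor, and with a tumor the groups overlapped through Tumor-CD40 replicate 3. The log2 fold change was 0.65 ± 0.19 without a tumor (edgeR adjusted p = 0.109) and 0.26 ± 0.19 with one (adjusted p = 0.714), and the average of the 2 was 0.45 ± 0.13 (adjusted p = 0.0967). Without NoTumor-CD40 replicate 2 the value without a tumor was 0.78 and passed (adjusted p = 0.0403). The average passed without that library at 0.52 and without Tumor-CD40 replicate 3 at 0.55 (adjusted p = 0.0438 and 0.0423), and over all settings tried its adjusted p ranged from 0.031 to 0.231.

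Id2 (ENSMUSG00000020644, chromosome 12), an inhibitor of E proteins such as Tcf4, had 461, 444 and 671 TPM in NoTumor-CD40, against 385, 400 and 451 TPM in NoTumor-NoCD40 libraries. It had 387, 488 and 380 TPM in Tumor-CD40, against 393, 433 and 403 TPM in Tumor-NoCD40 libraries. One library, NoTumor-CD40 replicate 3, stood above the rest, and both pairs overlapped. The log2 fold changes with the agonist were 0.23 ± 0.17 and 0.01 ± 0.17 without and with a tumor (edgeR adjusted p = 0.493 and 0.991). Nfil3 (ENSMUSG00000056749, chromosome 13), which acts upstream of Id2 in precursors, was the least abundant, with 235 to 819 counts per library. Its log2 fold changes of 0.32 ± 0.38 and 0.14 ± 0.38 lay within their errors (edgeR adjusted p = 0.685 and 0.953).

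Among the factors shared by conventional dendritic cells, Zbtb46 (ENSMUSG00000027583, chromosome 2, minus strand) had 189, 172 and 175 CPM in NoTumor-CD40, against 165, 161 and 186 CPM in NoTumor-NoCD40 libraries. Tumor-bearing animals gave 140.1, 136 and 101 CPM in Tumor-CD40, against 152, 173 and 127 CPM in Tumor-NoCD40 libraries. Both pairs overlapped, with log2 fold changes of 0.07 ± 0.17 without and -0.26 ± 0.17 with a tumor (edgeR adjusted p = 0.863 and 0.666). Between the agonist groups, all 3 Tumor-CD40 libraries lay below all 3 NoTumor-CD40 libraries, at a log2 fold change of -0.51 ± 0.17 that did not pass (edgeR adjusted p = 0.38). Zfp366 (ENSMUSG00000050919, chromosome 13), also called DC-SCRIPT, a zinc finger factor that sustains Irf8 in mouse cDC1, had 26.1, 42.9 and 41.1 TPM in NoTumor-CD40, against 33.9, 34.1 and 39.5 TPM in NoTumor-NoCD40 libraries. Its values were 25.8, 35.0 and 26.1 TPM in Tumor-CD40, against 29.1, 44.2 and 35.5 TPM in Tumor-NoCD40 libraries. Both pairs overlapped, with log2 fold changes of -0.09 ± 0.20 and -0.34 ± 0.20 (edgeR adjusted p = 0.846 and 0.627).

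Bcl6 (ENSMUSG00000022508, chromosome 16, minus strand), a transcriptional repressor of dendritic and germinal center B cells, had the most negative agonist values of the 10. It had 65.1, 96.7 and 77.6 CPM in NoTumor-CD40, against 120.4, 103 and 129 CPM in NoTumor-NoCD40 libraries. Tumor-CD40 libraries held 67.6, 88.2 and 64.7 CPM, against 84.2, 135 and 81.6 CPM in Tumor-NoCD40 libraries. All agonist libraries lay below all untreated ones without a tumor in CPM, though not in TPM, and the groups with a tumor overlapped. The log2 fold changes of -0.56 ± 0.22, -0.45 ± 0.22 and, on average, -0.50 ± 0.16 did not pass (edgeR adjusted p = 0.211, 0.533 and 0.117). The average was negative and short of the threshold in all 20 settings tried, from -0.58 to -0.37 with adjusted p from 0.0617 to 0.411. Gm37419, annotated on the opposite strand, overlaps Bcl6, and whether reads were counted by strand is not given in the sources used here.

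Of the factors tied to other fates, Spib (ENSMUSG00000008193, chromosome 7, 44525993 to 44532071, minus strand) encodes an ETS family factor of plasmacytoid dendritic cells and B cells. Its promoter is shown because it is the 1 gene of the 10 that passed. The RefSeq window (GRCm38.p6, chr7:44532022-44532321, minus strand) runs from 250 bases before the start to 50 after it, and capitals mark a match to the kappa B motif, the NF-kappa B recognition sequence, 180 to 171 bases before the start.
Spib promoter: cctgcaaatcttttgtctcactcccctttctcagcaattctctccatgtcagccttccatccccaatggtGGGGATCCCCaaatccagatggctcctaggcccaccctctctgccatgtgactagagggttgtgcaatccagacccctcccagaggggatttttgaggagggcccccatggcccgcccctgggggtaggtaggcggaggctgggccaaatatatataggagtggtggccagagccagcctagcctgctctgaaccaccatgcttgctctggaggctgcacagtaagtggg
The match reads the same on both strands, and 4.51% of all 32851 promoter windows of this length hold a match to the same motif. It is a match of letters, and the data hold no measure of binding.

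Spib had 40.2, 27.3 and 83.8 TPM in NoTumor-CD40, against 12.1, 5.86 and 5.07 TPM in NoTumor-NoCD40 libraries. Its level was 37.2, 46.8 and 55.4 TPM in Tumor-CD40, against 15.5, 7.93 and 20.5 TPM in Tumor-NoCD40 libraries. In both pairs every agonist library stood above every untreated one, and the highest of all was NoTumor-CD40 replicate 3. The log2 fold change with the agonist was 2.56 ± 0.42 without a tumor and passed (edgeR adjusted p = 0.0111). The value with a tumor was 1.63 ± 0.40 and did not pass (adjusted p = 0.0959), though it passed with DESeq2 (1.64, adjusted p = 0.00516) and with no filter on low counts (1.63, edgeR adjusted p = 0.0284). The average of the 2 was 2.09 ± 0.29 and passed (adjusted p = 0.00172), also in all 20 settings tried, at 1.88 to 2.36. The interaction, which tests whether the 2 agonist effects differ, was -0.93 ± 0.56 (adjusted p = 0.605), and no difference between them was shown.

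Spib without a tumor was lost from the calls without NoTumor-CD40 replicate 3 (log2 fold change 2.16, edgeR adjusted p = 0.054), without NoTumor-NoCD40 replicate 2 (2.47, 0.0934) and without NoTumor-NoCD40 replicate 3 (2.26, 0.0887). NoTumor-NoCD40 replicate 3 stands alone in its date-like title prefix, which is later than the others, so no agonist library shares that prefix. Among libraries that share a title prefix, Spib was higher with the agonist in 2 of 2 prefixes without a tumor. The log2 differences there were 1.80 and 1.99. Spib was also higher in 3 of 3 prefixes with a tumor, by 1.28 to 2.52. The 14 B cell genes summed to 338 to 525 CPM in NoTumor-CD40, against 280 to 378 CPM in NoTumor-NoCD40 libraries. Of the 14, 12 had a log2 fold change above 0 there, with a median of 1.20 beside -0.04 over all genes. None passed, and 6 had an unadjusted edgeR p under 0.05, beside 3322 of 18095 genes. With a tumor the 14 B cell genes summed to 1229 to 3271 CPM in Tumor-CD40, against 227 to 428 CPM in Tumor-NoCD40 libraries. Of the 14, 11 passed as higher, where 0.641% of all genes were called higher. Spib itself had 224 to 265 CPM in Tumor-CD40 and 144 to 369 CPM in NoTumor-CD40 libraries, a log2 fold change of -0.03 ± 0.39 (edgeR adjusted p = 0.988). The part of B cell RNA in the Spib values, without or with a tumor, was not tested.

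**Figure D2:**
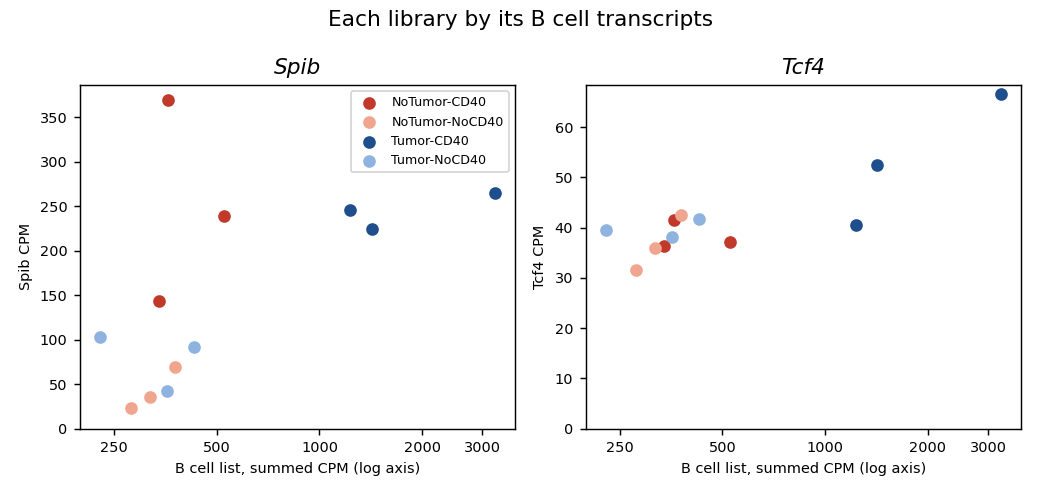
CPM of Spib (left) and Tcf4 (right) in each library against the summed CPM of 14 B cell genes on a log axis, colored by group. The 3 NoTumor-CD40 libraries hold 144 to 369 CPM of Spib at B cell sums of 338 to 525, and the 3 Tumor-CD40 libraries hold 224 to 265 CPM at sums of 1229 to 3271. The part of B cell RNA in these values was not tested.

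Tcf4 (ENSMUSG00000053477, chromosome 18), the E protein that sets the plasmacytoid fate, had 52.6, 40.5 and 66.7 CPM in Tumor-CD40, against 41.8, 38.2 and 39.5 CPM in Tumor-NoCD40 libraries. Without a tumor it had 37.2, 36.4 and 41.6 CPM in NoTumor-CD40, against 42.6, 35.9 and 31.6 CPM in NoTumor-NoCD40 libraries. The highest value was in Tumor-CD40 replicate 3, the library with the highest B cell sum (3271 CPM), and both pairs overlapped. The log2 fold change with the agonist was 0.42 ± 0.19 with a tumor and 0.06 ± 0.20 without one (edgeR adjusted p = 0.494 and 0.895), and the value without a tumor was negative in 4 other settings, down to -0.17. The sum of 10 plasmacytoid dendritic cell genes was 518 to 632 CPM in Tumor-CD40, against 183 to 378 CPM in Tumor-NoCD40 and 234 to 399.98 CPM in NoTumor-CD40 libraries. Within that list Siglech was at most 1.80 TPM in any library, while Ly6d ran from 2.03 to 202 TPM. For the tumor with the agonist 9 of the 10 had a log2 fold change above 0, with a median of 1.02 beside -0.01 over all genes, and none was called. The part of B cell or plasmacytoid dendritic cell RNA in the Tcf4 values was not tested. For the tumor with the agonist, 6 of the 14 B cell genes passed as higher, where 0.193% of all genes were called higher.

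Irf4 (ENSMUSG00000021356, chromosome 13, 30749226 to 30766976, plus strand), the factor of cDC2 and of migrating dendritic cells, had 74.5, 36.9 and 103 CPM in NoTumor-CD40, against 33.1, 27.97 and 20.7 CPM in NoTumor-NoCD40 libraries. Tumor-CD40 libraries held 65.9, 51.3 and 94.0 CPM, against 65.9, 22.3 and 88.4 CPM in Tumor-NoCD40 libraries. Without a tumor the groups did not overlap in CPM, by a margin between 36.9 and 33.1 CPM, and in TPM they overlapped. With a tumor they overlapped, and Tumor-NoCD40 replicate 2 lay within the range of the NoTumor-NoCD40 libraries. The log2 fold change was 1.39 ± 0.44 without a tumor (edgeR adjusted p = 0.136) and 0.26 ± 0.43 with one (adjusted p = 0.911), and the interaction of -1.13 ± 0.61 did not pass (adjusted p = 0.567). The value without a tumor passed without NoTumor-CD40 replicate 2, at 1.71 (adjusted p = 0.0401), and without Tumor-NoCD40 replicate 2, at 1.39 (adjusted p = 0.035). The sign of the value with a tumor turned without Tumor-NoCD40 replicate 2, at -0.13, and without Tumor-CD40 replicate 3, at -0.0024.

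**Figure D3:**
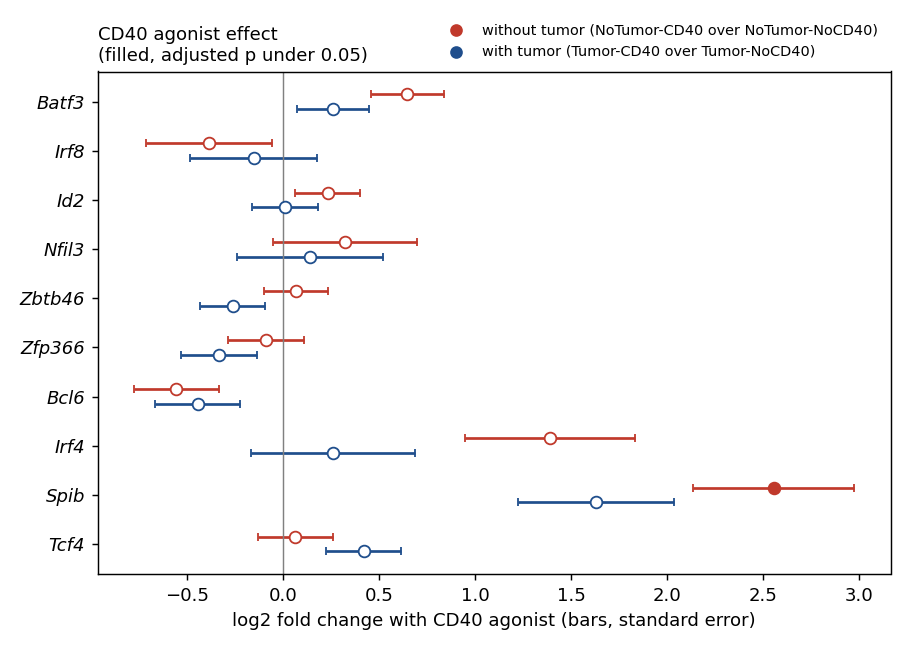
Log2 fold change with the CD40 agonist for each gene, without a tumor (red) and with one (blue), with standard errors. The filled point marks the 1 value past an edgeR adjusted p of 0.05, Spib without a tumor at 2.56. Spib with a tumor, at 1.63, and Irf4 without one, at 1.39, are next in size.

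Over the 10 genes, 1 was called in the comparison of the agonist without a tumor, where 1.44% of all genes tested were called. Unadjusted edgeR p was under 0.05 there for 4 of the 10 (Batf3, Irf4, Bcl6 and Spib), beside 3322 of 18095 genes. None was called in the comparison of the agonist with a tumor (0.685% of all genes), where DESeq2 called 1. At an unadjusted edgeR p under 0.05 there were 2 of the 10 in that comparison, beside 1803 of 18095 genes. The median log2 fold change of the 10 genes was 0.15 without and 0.07 with a tumor, beside medians over all genes tested of -0.04 and -0.02. In the average of the agonist effects 1 was called, where 2.51% of all genes were. Batf3, Irf4, Bcl6 and Spib had an unadjusted edgeR p under 0.05 there, 4 of the 10 beside 3171 of all genes. For the tumor without the agonist none of the 10 was called by edgeR or by any other tool run, and 0% of all genes were called. At an unadjusted edgeR p under 0.05 there were 2 of the 10 (Irf4 and Spib), beside 1053 of all genes. For the tumor with the agonist none was called by any tool run either, where 0.199% of all genes were called. At an unadjusted edgeR p under 0.05 there were 2 of the 10 (Zbtb46 and Tcf4), beside 1687 of all genes. The interaction called none of the 10 by any tool run, and 0% of all genes, with 0 of the 10 and 1773 of all genes at an unadjusted p under 0.05. In Tumor-NoCD40 against NoTumor-NoCD40 libraries Irf4 had a log2 fold change of 1.11 ± 0.44, Spib of 0.89 ± 0.41 and Irf8 of -0.55 ± 0.33, each at an edgeR adjusted p of 0.775. The 2 agonist comparisons share no libraries, but each shares a group with each tumor comparison.

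Groups that did not overlap in CPM were found for 4 of the 10 genes with the agonist without a tumor, where 23.2% of all genes tested did not overlap. Of these Batf3, Irf4 and Spib were higher and Bcl6 lower, where 11.2% and 12% of all genes were. With a tumor Spib did not overlap and was higher, where 11.9% of all genes did not overlap and 6.5% were higher. Between tumor and no tumor Zbtb46 did not overlap with the agonist and was lower (12.9% of all genes, 6.2% lower), and without the agonist 0 of the 10 did not overlap (8.98% of all genes).

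Transcript rows added detail for Batf3. Batf3-201, the protein-coding transcript, held on average 50.8% of the gene's TPM, the retained-intron transcript Batf3-202 held 26.2% and the noncoding transcript Batf3-205 held 15.2%. Batf3-205 starts at an upstream first exon (chromosome 1, 191097847 to 191098237) that replaces the coding first exon of Batf3-201 (191098325 to 191098527), and both are joined to the exon at 191100728 to 191100832. The 30 bases across each junction, from GENCODE M21 transcripts on GRCm38, show what tells the 2 forms apart, with the end of the first exon in capitals.
Batf3-205: ATCCTGGACCCCGAGagccccaaggacgat
Batf3-201: GGGAACCAGCCGCAGagccccaaggacgat
The upstream exon ends inside the RefSeq promoter window of Batf3 (GRCm38.p6, chr1:191098164-191098463, plus strand), 177 bases before the RefSeq start at 191098414. The same 15 bases are in capitals in that window.
Batf3 promoter: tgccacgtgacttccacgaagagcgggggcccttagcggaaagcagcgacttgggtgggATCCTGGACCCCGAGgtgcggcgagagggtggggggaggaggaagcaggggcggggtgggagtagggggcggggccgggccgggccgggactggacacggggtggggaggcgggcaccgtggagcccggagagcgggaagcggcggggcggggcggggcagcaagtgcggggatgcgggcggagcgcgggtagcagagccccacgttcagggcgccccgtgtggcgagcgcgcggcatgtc

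Batf3-201 held 42.2, 50.7 and 48.5% of Batf3 TPM in NoTumor-CD40, against 61.6, 55.8 and 64.1% in NoTumor-NoCD40 libraries. It held 37.6, 44.5 and 37.7% in Tumor-CD40, against 44.8, 54.3 and 67.7% in Tumor-NoCD40 libraries. Every agonist library lay below every untreated library of the same tumor state. The mean share was 43.5% with and 58.1% without the agonist, a difference of -14.5 percentage points (two-sided exact permutation test within tumor state, p = 0.005, the smallest the design allows, and 0.02 adjusted over 8 transcripts tested).

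Batf3-205 moved the other way. It held 16.4, 24.0 and 19.2% in NoTumor-CD40, against 6.84, 10.7 and 16.1% in NoTumor-NoCD40 libraries, and 16.3, 18.8 and 19.0% in Tumor-CD40, against 14.7, 10.7 and 9.67% in Tumor-NoCD40 libraries. No agonist library overlapped the untreated libraries of its tumor state for Batf3-205 alone. Together with the other noncoding transcript that starts at the upstream exon and held 5.59% of Batf3 TPM on average (pale orange in the plot of Batf3 shares), the share was 20.8, 31.7 and 26.2% in NoTumor-CD40, against 12.1, 11.01 and 21.7% in NoTumor-NoCD40 libraries. For tumor-bearing animals the joint share was 18.1, 28.5 and 25.6% in Tumor-CD40, against 23.6, 13.0 and 17.0% in Tumor-NoCD40 libraries, and both pairs overlapped. The mean share of Batf3-205 was 19.0% with and 11.5% without the agonist, a difference of 7.50 percentage points (exact permutation p = 0.005, adjusted 0.02). In the plot of Batf3 shares the dark and orange parts show the 2 forms side by side.

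**Figure D4:**
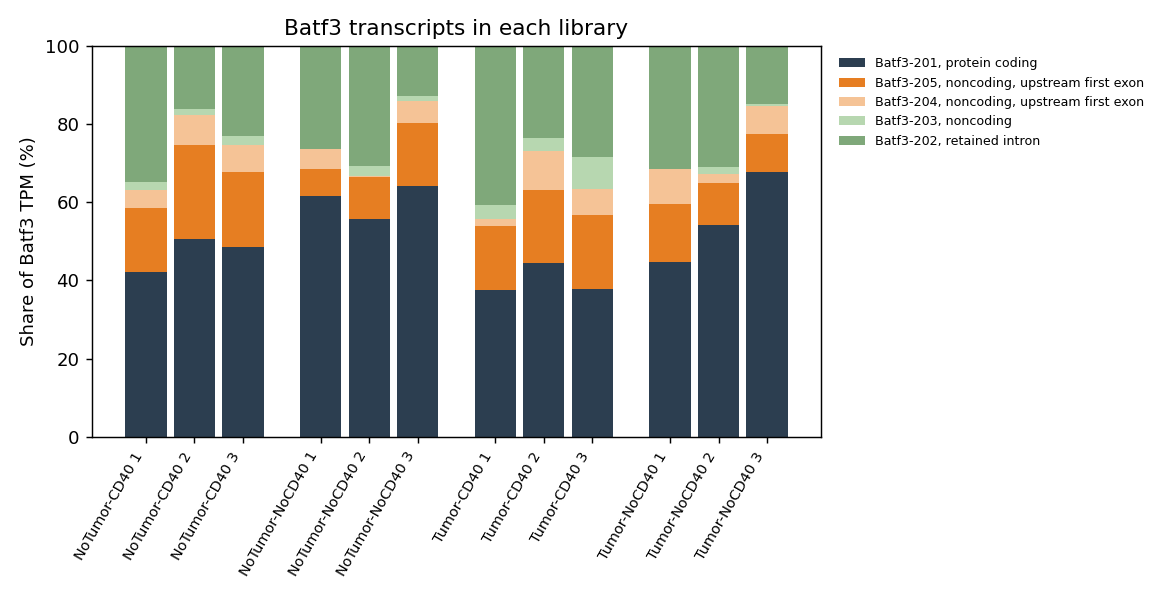
Share of Batf3 TPM held by each of its 5 transcripts in each library, in percent, as stacked bars. The protein-coding Batf3-201 (dark) holds 37.6 to 50.7% in the 6 agonist libraries and 44.8 to 67.7% in the 6 untreated ones.

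A smaller share is not a lower level. In TPM Batf3-201 had 49.9, 51.0 and 73.7 in NoTumor-CD40, against 40.4, 41.7 and 48.7 in NoTumor-NoCD40 libraries, and 38.8, 47.9 and 28.8 in Tumor-CD40, against 32.8, 42.4 and 50.1 in Tumor-NoCD40 libraries. Fitted over all 51672 transcripts tested, its average log2 fold change with the agonist was 0.11 ± 0.17 (edgeR adjusted p = 0.866). That of Batf3-205 was 1.24 ± 0.26 and did not pass either (edgeR adjusted p = 0.125). Batf3-205 had 19.4, 24.1 and 29.2 TPM in NoTumor-CD40, against 4.49, 8.01 and 12.2 TPM in NoTumor-NoCD40 libraries. It had 16.8, 20.2 and 14.5 TPM in Tumor-CD40, against 10.7, 8.36 and 7.15 TPM in Tumor-NoCD40 libraries. Its libraries did not overlap in either pair. The share calls were lost when 1 library was left out, for Batf3-201 without NoTumor-CD40 replicate 1 or without Tumor-CD40 replicate 1, 2 or 3, at -15.7 to -13.3 points (exact permutation, adjusted p 0.0533 to 0.06). For Batf3-205 they were lost without the same libraries or without NoTumor-CD40 replicate 2, at 6.46 to 8.36 points (exact permutation, adjusted p 0.0533 to 0.06). The tables give an estimated division of reads among transcripts without its uncertainty.

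Of the 6 other transcripts tested for shares, none passed. Zbtb46-201 held 63.0% with and 54.2% without the agonist (exact permutation p = 0.035, adjusted 0.0933), and the shares of Batf3-202, Irf4-201 and 3 Tcf4 transcripts had an adjusted exact permutation p of 0.975 each. Irf4-201 and Irf4-202 differ by 3 bases at 1 splice junction and are otherwise identical, as the 30 bases of GENCODE M21 around it show, with the extra bases in capitals.
Irf4-201: tctctgccagcccagCAGgttcataactac
Irf4-202: tctctgccagcccaggttcataactacatg
The share of Irf4-201 ran from 0 to 100% between libraries, so for Irf4 the sum over transcripts is the usable value. Tcf4 has 62 annotated transcripts in the tables, of which 31 were above 0 in any library, and 3 held a mean share of at least 10%. Single transcripts held most of the other genes, with Spib-201 at 92.5%, Irf8-201 at 83.0%, Id2-201 at 94.8% and Bcl6-201 at 98.6% of TPM on average.

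Of the 39 transcripts of the 10 genes that passed the filter, 1 was called in the average agonist effect, Spib-201, with a log2 fold change of 2.08 ± 0.32 (edgeR adjusted p = 0.0318), where 0.134% of all transcripts were called. None of the 39 was called by edgeR, or by limma on log2(TPM + 1), in the pairwise comparisons. There edgeR called 0.00774% of all transcripts for the agonist without a tumor, 0.0213% for the agonist with one, 0.00194% for the tumor with the agonist and 0% for the tumor without it. At an unadjusted edgeR p under 0.05 there were 6 of the 39 beside 4345 of all 51672 transcripts for the agonist without a tumor, and 7 beside 3534 for the agonist with one. For the tumor there were 1 beside 3258 with the agonist and 0 beside 2464 without it. Spib-201 kept its call in the average without NoTumor-CD40 replicate 2 and without NoTumor-NoCD40 replicate 1, and lost it without any 1 of the other 10 libraries, at 1.89 to 2.21 with adjusted p of 0.066 to 0.137.

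Libraries also differed in genes of dendritic cell maturation, so each of the 10 genes was set beside the mean log2 CPM of 20 genes of the mature dendritic cell program, such as Ccr7, Fscn1 and Cd80. That mean was 9.28, 8.51 and 9.52 in NoTumor-CD40, against 8.38, 7.75 and 7.33 in NoTumor-NoCD40 libraries. It was 8.82, 8.56 and 8.47 in Tumor-CD40, against 8.90, 7.65 and 8.91 in Tumor-NoCD40 libraries. The agonist libraries without a tumor were all above their untreated counterparts, whereas the groups with a tumor overlapped and Tumor-NoCD40 replicates 1 and 3 were above all Tumor-CD40 libraries.

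Over the 12 libraries and 10 relations, with 100000 permutations, Irf4 followed the program most closely. The permutations shuffled all 12 libraries without regard to group, so their p-values also take in differences between the groups. Its Pearson r was 0.89 (permutation p = 0.00012, adjusted 0.0012) and its Spearman rho 0.84 (permutation p = 0.00122, adjusted 0.0122). Spib had an r of 0.85 (permutation p = 0.00046, adjusted 0.0023) and a rho of 0.71 (permutation p = 0.0126, adjusted 0.0417). Without the 2 libraries farthest from the median of the program, NoTumor-NoCD40 replicate 3 and NoTumor-CD40 replicate 3, r was 0.82 for Irf4 and 0.72 for Spib. Taken as deviations from the group means, which leaves only differences between libraries of a group, r was 0.87 for Irf4 and 0.93 for Spib. Within the 3 title prefixes of 4, 4 and 3 libraries, r was 0.91, 0.92 and 0.67 for Irf4 and 0.76, 0.97 and 0.34 for Spib. No prefix holds 2 libraries of a group, so a value within a prefix rests on differences between groups.

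Irf8 and Bcl6 ran against the program. Bcl6 had an r of -0.78 (permutation p = 0.00307, adjusted 0.0102) and a rho of -0.73 (permutation p = 0.00879, adjusted 0.0417), and Irf8 an r of -0.68 (permutation p = 0.0136, adjusted 0.0339) and a rho of -0.69 (permutation p = 0.0167, adjusted 0.0417). Without the 2 farthest libraries r was -0.75 for Bcl6 and -0.68 for Irf8, and as deviations from group means -0.71 and -0.81. Within prefixes r was -0.87, -0.83 and 0.68 for Bcl6 and -0.22, -0.91 and 0.31 for Irf8, so both signs turned in the prefix of 3 libraries. The 5 libraries with the most Irf8, at 1906 to 2640.0 CPM, had program means of 7.33 to 8.51. The Irf8 relation missed the threshold without NoTumor-NoCD40 replicate 2 or 3, Tumor-CD40 replicate 1 or 2 or Tumor-NoCD40 replicate 2, with r from -0.68 to -0.61.

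Batf3 had an r of 0.65 (permutation p = 0.0238, adjusted 0.0475) and a rho of 0.57 (permutation p = 0.0558, adjusted 0.0972). Without the 2 farthest libraries its r was 0.45 and as deviations from group means 0.32. The pooled relation thus rests in part on those libraries and on differences between groups. It also missed the threshold without 9 of the 12 libraries, left out one at a time. Within prefixes of 4, 4 and 3 libraries r was 0.86, 0.96 and 0.92, and the first 2 of these hold neither of the farthest libraries. Each library of a prefix is of another group, so these values also rest on differences between groups. Id2, Nfil3, Zfp366, Zbtb46 and Tcf4 did not pass, with r from -0.52 for Zfp366 to 0.36 for Id2 and adjusted permutation p from 0.134 to 0.685. Of the 20 genes, 6 rose with the agonist without a tumor, where 1.36% of all genes rose. Cd274 (log2 fold change 2.71 ± 0.35), Cd80 (1.76 ± 0.27), Cd200 (1.92 ± 0.36) and Traf1 (1.45 ± 0.29) were among them, each at an edgeR adjusted p under the threshold. At an unadjusted edgeR p under 0.05 there were 15 of the 20, beside 3322 of 18095 genes. None of the 20 was called with a tumor, where 0.685% of all genes were. There 3 had an unadjusted edgeR p under 0.05, beside 1803 of 18095 genes. The CD40 agonist and the mature program moved together without a tumor, so their parts in these values cannot be told apart there.

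**Figure D5:**
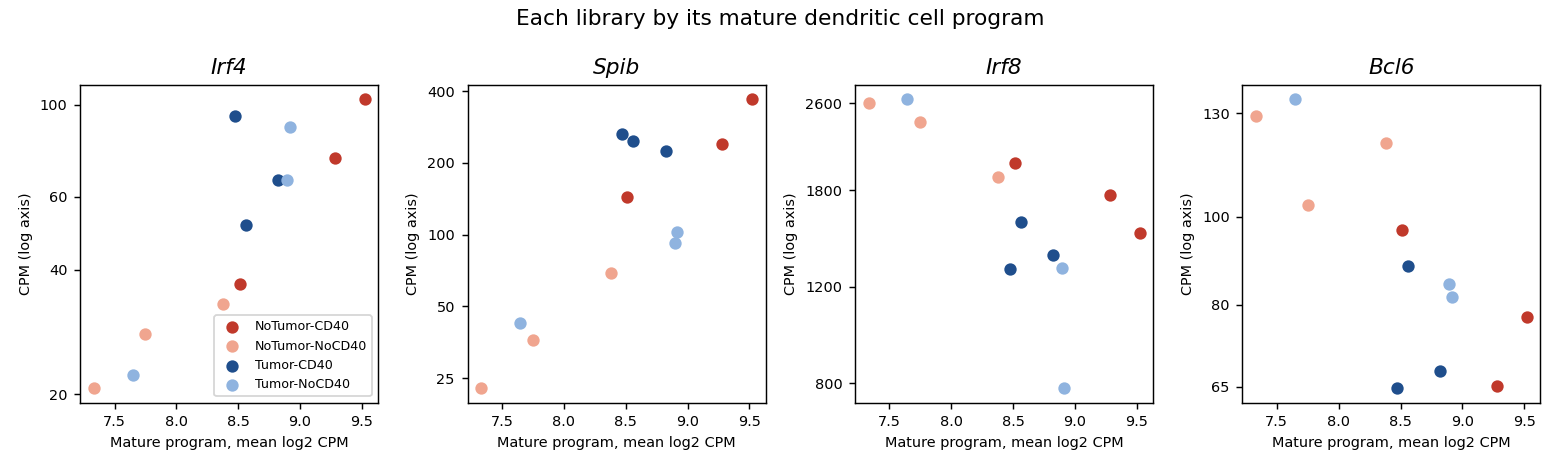
CPM of Irf4, Spib, Irf8 and Bcl6 (log axes) in each library against the mean log2 CPM of 20 genes of the mature dendritic cell program. Irf4 and Spib are higher (r = 0.89 and 0.85) and Irf8 and Bcl6 lower (r = -0.68 and -0.78) in libraries with a higher program. Tumor-NoCD40 libraries are spread along it, at 8.90, 7.65 and 8.91.

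The genes whose log2 CPM was most like that of Spib over the 12 libraries, out of 10221 genes whose mean reached 5 CPM, were Cd274 (r = 0.98), Ehd1 (r = 0.98) and Cfb (r = 0.97). Cd274, which encodes the checkpoint ligand PD-L1 and is one of the 20 genes of the mature program, averaged 253 ± 102 CPM in NoTumor-CD40 and 38.8 ± 15.3 CPM in NoTumor-NoCD40 libraries (SD, n = 3 each). In tumor-bearing animals it averaged 209 ± 29.6 CPM in Tumor-CD40 and 81.4 ± 24.9 CPM in Tumor-NoCD40 libraries. Most like Batf3 were Riok3 (r = 0.97), Spop (r = 0.93) and Actb (r = 0.92), and most like Irf8 were Eps8 (r = 0.98), Gnb2 (r = 0.98) and Pqlc2 (r = 0.96). These are the highest of many correlations and describe these libraries.

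Of 33 other transcription factors of dendritic cells, all of them tested, 1 rose with the agonist without a tumor (1.36% of all genes rose) and 1 with a tumor (0.641% of all genes), and none fell in either. Irf1, an interferon-induced factor, averaged 1013 ± 474 CPM in NoTumor-CD40 and 336 ± 71.2 CPM in NoTumor-NoCD40 libraries, with a log2 fold change of 1.59 ± 0.37 (edgeR adjusted p = 0.0499). Runx3, a factor of conventional dendritic cells and CD8 T cells, averaged 129.9 ± 16.0 CPM in Tumor-CD40 and 61.7 ± 11.7 CPM in Tumor-NoCD40 libraries (SD, n = 3 each), with a log2 fold change of 1.07 ± 0.19 (edgeR adjusted p = 0.0192). In the average of the agonist effects, where 2.17% of all genes rose and 0.343% fell, Runx3 rose, at 0.76 ± 0.13 (edgeR adjusted p = 0.00764), and Klf4, a factor of cDC2 that was chosen for mention after its values were seen, fell by 1.46 ± 0.32 on the log2 scale (adjusted p = 0.0268). The list had median log2 fold changes of 0.33 without and 0.09 with a tumor, beside -0.04 and -0.02 over all genes. Of the 16 cDC1 identity genes, Ly75 (an uptake receptor, 1.12 ± 0.24, edgeR adjusted p = 0.0369) was called with the agonist without a tumor. With a tumor edgeR called none of the 16, and 0 had an unadjusted p under 0.05. The medians of that list were -0.95 and -0.33, with 1 and 3 of the 16 above 0.

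Sums of marker genes of other cell types also differed between groups. The sum of 10 plasmacytoid dendritic cell genes was 518 to 632 CPM in Tumor-CD40 and 183 to 378 CPM in Tumor-NoCD40 libraries, with 1 of 10 called (Ly6d, 3.90 ± 0.68, edgeR adjusted p = 0.0186), a gene that B lineage cells also express. The sum of 8 plasma cell genes was 149 to 305 CPM in Tumor-CD40 and 102 to 135 CPM in Tumor-NoCD40 libraries, with 1 of 7 tested called (Ighg2b, 3.63 ± 0.56, edgeR adjusted p = 0.01), and 1 of the 8 was at 0 in both groups without the agonist. For the tumor with the agonist Ighg2b and Mzb1 were called. Genes of cDC2, where Irf4 acts, summed to 195 to 281 CPM in Tumor-CD40 and 88.9 to 174 CPM in Tumor-NoCD40 libraries, and to 126 to 172 CPM in NoTumor-CD40 and 92.4 to 117 CPM in NoTumor-NoCD40 libraries. Of 10 cDC2 genes Esam was called with the agonist without a tumor (1.49 ± 0.33, edgeR adjusted p = 0.0425) and 0 with one, where 3 had an unadjusted edgeR p under 0.05. Of 10 monocyte and macrophage genes Ly6c2 was called in both agonist comparisons, at 1.63 ± 0.29 without and 2.72 ± 0.30 with a tumor (edgeR adjusted p = 0.016 and 0.00159), and C1qb for the tumor with the agonist. The sum of these 10 genes was 117 to 383 CPM in NoTumor-CD40, against 535 to 696 CPM in NoTumor-NoCD40 libraries, lower with no overlap, and 244 to 365 CPM in Tumor-CD40, against 169 to 555 CPM in Tumor-NoCD40 libraries. Langerhans cell genes summed to 19.4 to 39.1 CPM in Tumor-CD40 and 101 to 119 CPM in Tumor-NoCD40 libraries, and T cell genes to 349.6 to 563 CPM in Tumor-CD40 and 217 to 901 CPM in Tumor-NoCD40 libraries. Without a tumor the Langerhans cell genes summed to 55.7 to 103 CPM in NoTumor-CD40, against 111 to 153 CPM in NoTumor-NoCD40 libraries. No T cell, innate lymphoid or Langerhans cell gene was called by edgeR in the pairwise agonist comparisons. In the average of the agonist effects 1 of 5 Langerhans cell genes tested was called lower, where 0.343% of all genes were. For the agonist, genes of these 3 lists at an unadjusted edgeR p under 0.05 numbered 1 of 10, 1 of 7 and 2 of 5 without a tumor, beside 3322 of 18095 genes. With a tumor they numbered 0, 2 and 3, beside 1803 of 18095 genes. Over all genes edgeR called 1.44% for the agonist without a tumor, 0.685% for the agonist with one and 0.199% for the tumor with the agonist. The part of these other cell types in the values of the transcription factors was not tested.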

How the data were processed

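Per the labels' protocols, the libraries were NEBNext Ultra II Directional ones of total RNA (RNeasy Plus Micro). The submitters' processing notes name Salmon and mm10, the deposited tables are titled for Sailfish, and version, annotation and strand setting are not given in the sources used here. Expected counts (estimated, not normalized) and TPM were deposited for each transcript. Of 136288 transcripts, 136176 were assigned to 53458 genes of GENCODE M21 (GRCm38, the same assembly as mm10). The 112 left out held 0.0279 to 0.0457% of counts. Values were summed to genes, and expected counts rounded.

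Tests used edgeR 4.0.16 in R 4.3.3, with TMM factors of 0.936 to 1.07 and filterByExpr on the groups (count minimum 10, total 15). A single model held the 4 groups and all 12 libraries, leaving 8 residual degrees of freedom. Two-sided quasi-likelihood tests (legacy = FALSE) were followed by Benjamini-Hochberg adjustment over all 18095 genes or 51672 transcripts, at 0.05. CPM carry the TMM factors. The fits were tested on simulated data. The 10 genes, the gene lists and the tests were chosen with earlier results of these data known. Named genes are the 10, up to 4 per list past the threshold in a pairwise comparison, and the 3 genes most like Spib, Batf3 and Irf8. The RefSeq promoter table (GRCm38.p6) held 8 of the 10 genes in 10 windows, and Zfp366 and Tcf4 are named only. The motifs searched, on both strands, were an interferon response motif of GAAA and GAAA spaced by 2 bases (in 3.44% of all windows), TTCNNNGAA (8.30%), TGANTCA (7.81%), GGAA and GAAA spaced by 2 bases (2.72%), the kappa B motif (4.51%) and CANNTG (72.3%), and overlaps between motifs were kept.

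Alternatives were DESeq2 1.42.0 with its size factors, other edgeR settings, limma 3.58.1 (voom, and trend on log2(TPM + 1) and log2(TPM + 0.1)), the title prefix as a block and leaving out each library. Prefixes are date-like, none holds 2 libraries of a group, and NoTumor-NoCD40 replicate 3 is alone in its later prefix. They were not taken to pair libraries, since deviations of libraries with the same prefix correlated at only 0.0036 to 0.228. All of these correlations were above 0, and none between different prefixes is given beside them.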

Additional observations from a re-analysis of the deposited data

How the results depend on the processing

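The call of Spib with the agonist without a tumor held in 16 of 21 settings, and that in the average agonist effect in 20 of 20. For the agonist without a tumor, where 1 of the 10 genes was called, DESeq2 called 3 (Batf3, Irf4 and Spib), limma on log2(TPM + 1) and on log2(TPM + 0.1) called 0 (Spib at adjusted p = 0.0659 and 0.0595), and leaving out 1 library gave 0 to 3. For the agonist with a tumor, where 0 were called, DESeq2, no filter on low counts and the title prefix as a replicate block each called 1, which was Spib (adjusted p = 0.00516, 0.0284 and 0.00458), and leaving out 1 library gave 0. The block changed no other call of the 10 genes. For the average, where 1 was called, DESeq2 called 2 (Batf3 as well), and leaving out 1 library gave 1 to 2. Of the transcripts, no filter called 1 for the agonist without a tumor, where none was called, and legacy = TRUE and limma on log2(TPM + 1) called 0 in the average, where 1 was, with 0 to 1 when 1 library was left out. Transcript shares past the threshold numbered 2, and 0 to 3 when 1 library was left out. Relations to the mature program numbered 5, but 2 on log2(TPM + 1), and 3 to 5 when 1 library was left out. Signs turned for Zfp366 without a tumor, at 0.0052 and 0.0045 with the limma fits on log2(TPM + 1) and log2(TPM + 0.1), for Tcf4 without a tumor, at -0.16 and -0.17 with them and -0.11 with the replicate block, and for Irf8 with a tumor, at 0.021 with voom and 0.036 with each limma fit on TPM. Leaving out 1 library moved Nfil3 without a tumor between -0.31 and 0.66, Zfp366 between -0.24 and 0.073 and Tcf4 between -0.033 and 0.18. With a tumor it moved Irf8 between -0.47 and 0.44, Irf4 between -0.13 and 0.69, Id2 between -0.11 and 0.13 and Nfil3 between -0.036 and 0.27. In the average it moved Irf8 between -0.43 and 0.026 and Nfil3 between -0.083 and 0.40, and the r of Zbtb46 with the mature program between -0.299 and 0.061. The cause of these changes was not tested. Over all genes the alternatives gave 22 to 947 calls for the agonist without a tumor (261 as reported), 21 to 316 with one (124), 0 to 29 for the tumor without the agonist (0), 0 to 166 with it (36), 0 to 18 for the interaction (0) and 133 to 962 for the average (454). With 3 libraries a group, the standard errors of the agonist log2 fold changes of the 10 genes ran from 0.17 to 0.44.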
